A study of Mus musculus with 8 samples.

Results

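The genes described are 10 markers of macrophages and their monocyte precursors: Lyve1, Timd4, Folr2, Cd163 and Mrc1 as markers of resident macrophages, Lyz2, Ly6c2, Gpnmb and Plac8 as markers of recruited cells, and Adgre1 as a marker of macrophages of either kind. A probe stood for a gene when the array design named it by a RefSeq transcript of that gene, and the brightest such probe was taken among those detected (well above background) on 4 arrays or more out of 8. By this rule 9 of the 10 genes had a probe, among 15156 genes with a retained probe in the whole series. No probe was named by a transcript of Ly6c2, and that gene therefore has no value here. The other 9 were well above background on all 8 arrays.

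Male C57BL\6 mice underwent permanent occlusion of the anterior interventricular artery (MI mice, n = 4) or the same operation with no ligation (sham-operated mice, n = 4). Total RNA of the ventricles was taken after 24 hours and hybridised in 1 colour to Agilent SurePrint G3 mouse arrays, 1 mouse per array, so that each value refers to whole ventricular tissue and not to sorted cells. In such tissue, fewer cells of a type and less RNA per cell cannot be told apart. Infarcted and remote muscle were not separated, so that a change limited to either zone would be diluted. The surgery itself, thoracotomy included, was shared by both groups, and no unoperated mice were used.

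The healthy heart holds macrophages that settled before birth and largely renew themselves in place. They take up cell debris and carry surface receptors such as the hyaluronan receptor Lyve1, the phosphatidylserine receptor Timd4 and the folate receptor Folr2. After infarction many of these cells are known to die in the ischemic zone, while neutrophils and then Ly6C-high monocytes enter from the blood through Ccr2 and become macrophages within the tissue.

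The share of spots detected on an array was 56.2% to 64.0%, controls included. All arrays lay on 1 slide, in 2 rows that each held both groups, and precision is limited by their number. Values are log2 processed signals on the authors' spike-in scale, and they compare mice for 1 probe, not 1 probe with another. Calls required a fold-change over 2 together with an adjusted p under 0.05 in limma. Cardiomyocyte genes were detected in every mouse, among them Myl2, a myosin light chain, whose log2 signal was 18.75 ± 0.30 (mean ± SD) with MI and 18.84 ± 0.24 with sham operation. No atrial markers were examined, so ventricle was not told apart from whole heart.

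None of the 9 measured markers changed by more than 2-fold with an adjusted p under 0.05 (0 of 9, against 3.48% of all 34038 retained probes called). Without the requirement of 2-fold, 1 of 9 passed the adjusted p, and this was Plac8, which was higher in MI mice. By this criterion 6.3% of all retained probes passed as higher with MI and 1.31% as lower. At an unadjusted p under 0.05, 2 of 9 passed, Cd163 and Plac8, against 19.9% of all retained probes. Significance analysis of microarrays and a linear fit without moderation of the variances, each with adjustment over all probes, gave 0 of 9. In none of the 9 did the values of the MI mice and the sham-operated mice separate without overlap, whereas 8.44% of all probes lay wholly higher and 2.7% wholly lower in MI mice. The median log2 fold-change was 0.15 over the 9 markers and 0.12 over all retained probes.

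**Figure D1:**
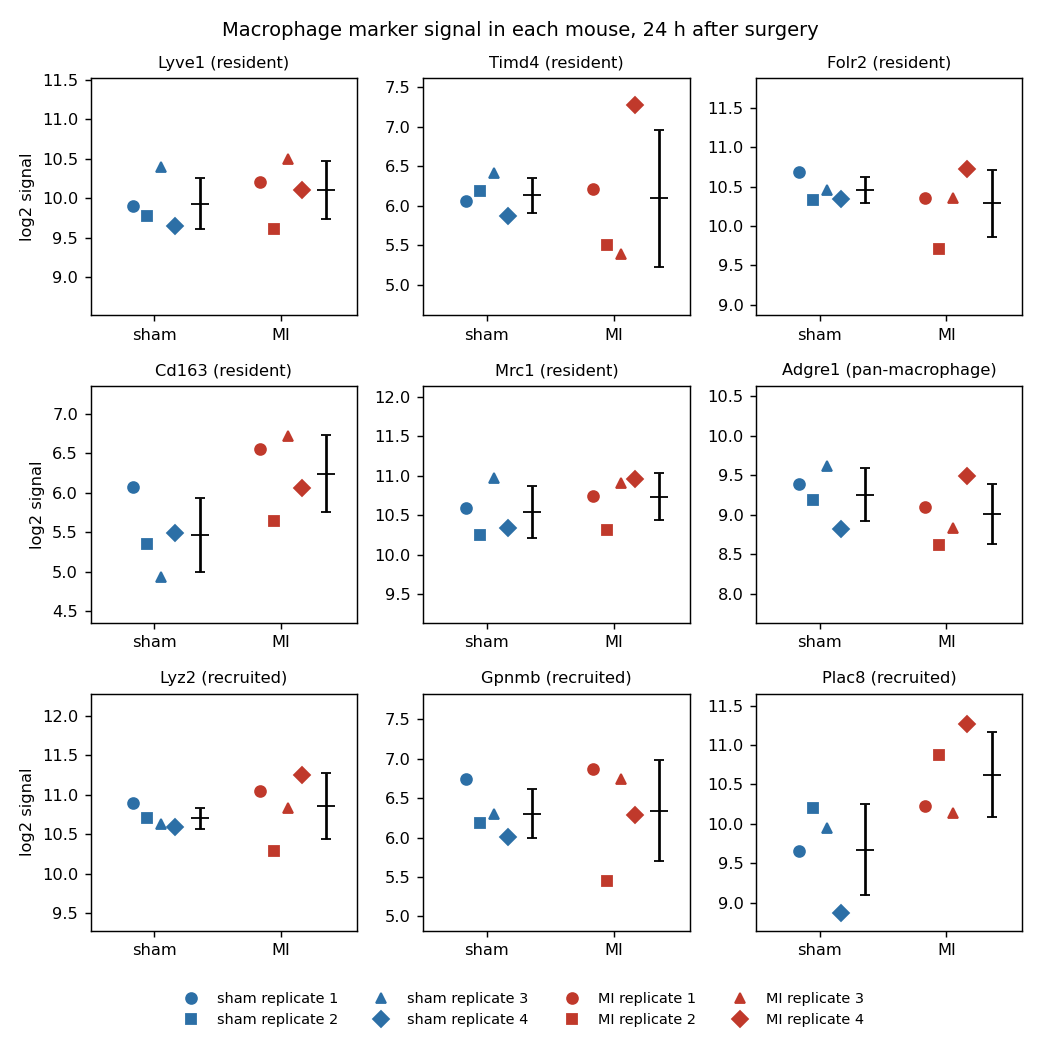
Log2 signal of the 9 measured markers in each mouse, with 1 panel per gene, 4 sham-operated mice in blue and 4 MI mice in red, and a symbol for each replicate number. Black bars are the mean ± SD of a group, and every panel spans 3 log2 units. The groups overlap in all 9 panels, and the sham-operated mouse of replicate 4 has the lowest Plac8 value, 8.88.

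Among the resident markers, Lyve1 encodes a hyaluronan receptor found on perivascular macrophages and on lymphatic endothelium. The MI mice of replicates 1 to 4 had log2 signals of 10.21, 9.61, 10.50 and 10.10, and the sham-operated mice, in the same order, 9.90, 9.78, 10.39 and 9.65. Both groups covered almost the same range, and the lowest and the highest value both belonged to MI mice. The log2 fold-change was 0.17 (SE 0.23, 95% interval -0.30 to 0.64, adjusted p = 0.740).

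Timd4, also called TIM-4, binds phosphatidylserine on dying cells and marks the resident macrophages that are least replaced from the blood. Its log2 signal in MI mice was 6.21, 5.51, 5.39 and 7.27, and in sham-operated mice 6.06, 6.18, 6.41 and 5.88. MI mice were more dispersed (SD 0.87) than sham-operated mice (SD 0.22), with 2 MI mice below and 1 above all sham-operated mice. The means were nearly equal, with a log2 fold-change of -0.04 (SE 0.29, 95% interval -0.64 to 0.56, adjusted p = 0.961).

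Folr2 encodes a folate receptor of tissue macrophages. MI mice had log2 signals of 10.35, 9.71, 10.36 and 10.73, and sham-operated mice had 10.68, 10.33, 10.45 and 10.35. A single MI mouse, that of replicate 2, lay below every sham-operated mouse, and the MI mouse of replicate 4 lay above them. The log2 fold-change was -0.17 (SE 0.22, 95% interval -0.63 to 0.29, adjusted p = 0.746), and it turned to 0.03 without the MI mouse of replicate 2.

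Cd163, the scavenger receptor for hemoglobin bound to haptoglobin, had the largest difference of the 5 resident markers. Log2 signals of 6.55, 5.64, 6.72 and 6.06 were measured in MI mice, against 6.07, 5.35, 4.94 and 5.49 in sham-operated mice. The MI mice of replicates 1 and 3 lay above all sham-operated mice, and the sham-operated mouse of replicate 1 lay above 2 MI mice. The fold-change was 1.72 (log2 0.78, SE 0.25, 95% interval 0.26 to 1.31), with p = 0.00498 and an adjusted p of 0.0597 in limma, and an exact two-sided permutation test over the mice gave p = 0.0857, where the smallest p that 4 against 4 allows is 0.0286. The adjusted p was 0.0130 without the sham-operated mouse of replicate 1, 0.0245 without the MI mouse of replicate 2 and 0.0460 without the MI mouse of replicate 4, whereas it was 0.173 to 0.192 without the MI mouse of replicate 1 or 3 or the sham-operated mouse of replicate 3. The size depended on how dim signals were treated, and the log2 fold-change was 0.18 (adjusted p = 0.448) with a vsn model fitted anew to the spike-in spots and 0.29 (adjusted p = 0.0915) with normexp background correction. The probe was among the dimmer ones of the measured markers, with processed intensities from 19.9 to 88.8. Array medians over all spots other than controls, detected or not, were 25.9 to 45.4. The probe lay below the median of its array only in the sham-operated mice of replicates 2 and 3.

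Mrc1, the mannose receptor CD206, is a general marker of resident and alternatively activated macrophages. MI mice had log2 signals of 10.75, 10.31, 10.91 and 10.96, and sham-operated mice had 10.60, 10.25, 10.97 and 10.34. Sham-operated mice gave both the lowest and the highest value. The log2 fold-change was 0.20 (SE 0.22, 95% interval -0.26 to 0.65, adjusted p = 0.689).

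Adgre1, which encodes an adhesion G protein-coupled receptor, is carried by nearly all mouse macrophages. The log2 signals of the MI mice were 9.10, 8.62, 8.83 and 9.49, those of the sham-operated mice 9.39, 9.18, 9.61 and 8.82. The MI mouse of replicate 2 was the lowest of all 8 and the sham-operated mouse of replicate 3 the highest. The log2 fold-change was -0.24 (SE 0.23, 95% interval -0.71 to 0.23, adjusted p = 0.618). A dimmer probe of Adgre1 had a log2 fold-change of -0.08 (adjusted p = 0.893).

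Of the recruited markers, Plac8 is a small cysteine-rich protein abundant in Ly6C-high monocytes and also present in neutrophils. It reached log2 signals of 10.22, 10.87, 10.14 and 11.27 in MI mice, against 9.66, 10.21, 9.95 and 8.88 in sham-operated mice. The MI mice of replicates 2 and 4 stood above the others, and only the MI mouse of replicate 3 fell below a sham-operated mouse. The fold-change was 1.94 (log2 0.95, SE 0.27, 95% interval 0.39 to 1.51, adjusted p = 0.0290), just under the 2-fold requirement, and the exact two-sided permutation test gave p = 0.0571. A dimmer probe of the same gene rose alike, by 0.90 on the log2 scale (adjusted p = 0.0288).

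The adjusted p of Plac8 was lost in 13 of 22 other settings, though its direction was kept in each. It was 0.199 when arrays were scaled to their 75th percentile, 0.0599 with the authors' deposited values, 0.260 with no filter on detection and 0.324 without moderation of the variances. Without the sham-operated mouse of replicate 4 the log2 fold-change was 0.69 (adjusted p = 0.128). Without the MI mouse of replicate 4 it was 0.74 (adjusted p = 0.0914), and without the MI mouse of replicate 2 it was 0.87 (adjusted p = 0.0995). It met both thresholds of a call without the MI mouse of replicate 1 (1.09, adjusted p = 0.0202) or 3 (1.12, adjusted p = 0.00427). The same held without the sham-operated mouse of replicate 2 (1.13, adjusted p = 0.00559) or 3 (1.04, adjusted p = 0.0239). Without the sham-operated mouse of replicate 1 it was 0.95 (adjusted p = 0.0389).

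Lyz2 encodes lysozyme M of monocytes, macrophages and neutrophils. MI mice had log2 signals of 11.05, 10.28, 10.83 and 11.25, whereas sham-operated mice had 10.89, 10.70, 10.63 and 10.59. Sham-operated mice lay close together (SD 0.13), and MI mice fell on both sides of them (SD 0.42). The log2 fold-change was 0.15 (SE 0.22, 95% interval -0.31 to 0.61, adjusted p = 0.772). The probe of Lyz1, a near-identical lysozyme gene that may share signal with it, had a log2 fold-change of -0.13 (adjusted p = 0.791).

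Gpnmb is a glycoprotein of lipid-laden and late repair macrophages and of pigment cells. The log2 signals were 6.87, 5.45, 6.75 and 6.29 in MI mice, and 6.74, 6.18, 6.30 and 6.00 in the sham group. The lowest and the highest of the 8 values were those of MI mice. The log2 fold-change was 0.04 (SE 0.26, 95% interval -0.50 to 0.57, adjusted p = 0.958), and it turned to -0.15 with scaling to the 75th percentile. In the list of melanocyte genes, 0 of 4 passed the adjusted p, and their summed intensity ranged from 1214 to 1867 in MI mice, within the range of 799 to 2466 of sham-operated mice. This sum was not scaled between arrays. A single gene of the 4 ranged from 82.3 to 1857.4 among sham-operated mice and set much of the width of their range.

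Ly6c1, the paralog of Ly6c2 that is also expressed by endothelium, had 2 probes. The brighter had a log2 fold-change of 0.30 (adjusted p = 0.522) and the other of 0.11 (adjusted p = 0.850). These values do not stand in for Ly6c2, the gene that defines Ly6C on monocytes.

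**Figure D2:**
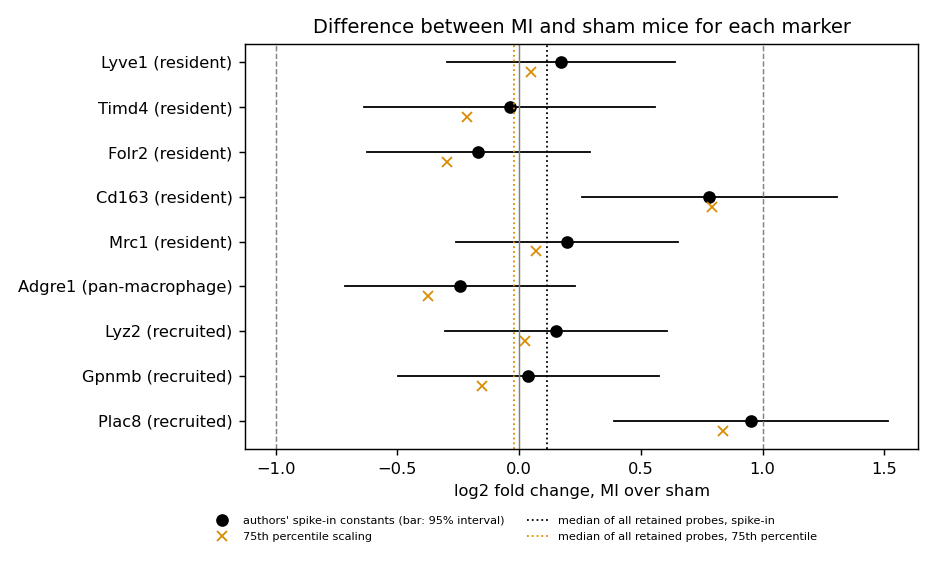
Log2 fold-change of MI over sham-operated mice for the 9 markers. Black points and bars are the limma estimates with 95% intervals on the authors' spike-in scale, orange crosses are the estimates after scaling to the 75th percentile, dotted lines are the medians of all retained probes on the 2 scales, and dashed lines mark a 2-fold difference. The intervals of 7 markers include 0, and those of Cd163 and Plac8 do not.

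The scale between arrays moved many of the values. Scaling to the 75th percentile also leaves out the authors' additive constants, so that the differences between both scales hold 2 choices at once and are not the same for every probe. The median log2 fold-change over all retained probes was 0.12 on the spike-in scale and -0.02 with scaling to the 75th percentile, a difference of 0.14. On the spike-in scale 1046 probes were called higher with MI and 138 lower, and with scaling to the 75th percentile 1043 and 401. At any fold, 2144 were higher and 446 lower against 2963 higher and 3010 lower, so that 17.5% of all probes passed with scaling to the 75th percentile while 0 of 9 markers did. The same 5 of 9 markers (Lyve1, Cd163, Mrc1, Lyz2 and Plac8) stood above the median of all probes on both scales. Gpnmb alone changed sign between the 2 scales, which left 6 markers higher and 3 lower on the spike-in scale and 5 higher and 4 lower on the other.

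Mice of the same group differed over most of the array, the markers included. The MI mouse of replicate 2 was the lowest of its group for 7 of 9 markers, all but Timd4 and Plac8, and likewise for 76.7% of all probes with a value on every array, for all 4 endothelial and all 4 fibroblast genes and for 5 of 6 cardiomyocyte genes. Its median deviation from the group mean was -0.57 over the markers and -0.33 over all probes. The MI mouse of replicate 4 was the highest of its group for 6 of 9 markers (Adgre1, Mrc1, Timd4, Folr2, Lyz2 and Plac8) and for 18.3% of all probes. Among sham-operated mice, that of replicate 4 was the lowest for 6 of 9 markers (Adgre1, Lyve1, Timd4, Lyz2, Gpnmb and Plac8) and for 18.1% of all probes. Those of replicates 1 and 3 were each the highest for 4 of 9 markers, and for 46.5% and 38.8% of all probes. In MI mice the difference between the highest and the lowest value was 0.65 (Mrc1) to 1.89 (Timd4) log2 units, and in sham-operated mice it was 0.30 (Lyz2) to 1.33 (Plac8).

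The 5 resident markers and the 3 measured recruited markers were then set against each other within each mouse, as the mean log2 signal of the recruited markers minus that of the resident markers. A scale that multiplies a whole array cancels in this difference. Its size has no meaning of its own, because it sets different probes against each other, and only its change between groups is read. It was 0.57, 0.71, 0.46 and 0.58 in MI mice (0.58 ± 0.10, SD, n = 4), compared with 0.43, 0.65, 0.32 and 0.15 in sham-operated mice (0.39 ± 0.21, SD, n = 4). Only 1 MI mouse, that of replicate 2, lay above the highest sham-operated mouse. The groups differed by 0.19, close to the pooled SD of 0.17. No p is given for this score, because its genes were chosen with earlier results of these data known.

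This difference depended on single genes. Without Plac8 it was -0.10, with recruited markers lower against resident markers in MI mice, and without Cd163 it was 0.34. With Adgre1 counted as resident it was 0.26. The median log2 fold-change was 0.17 over the 5 resident markers and 0.15 over the 3 recruited markers, and 0.05 and 0.03 with scaling to the 75th percentile.

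**Figure D3:**
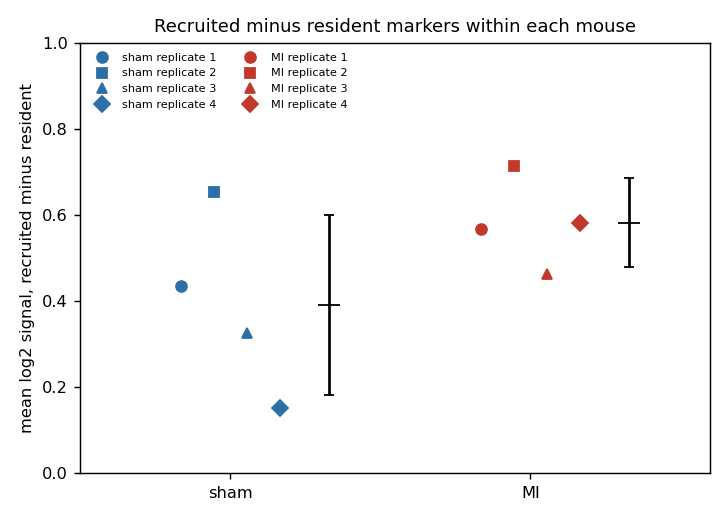
Mean log2 signal of the recruited markers (Lyz2, Gpnmb and Plac8) minus that of the resident markers (Lyve1, Timd4, Folr2, Cd163 and Mrc1) in each mouse, with sham-operated mice in blue and MI mice in red. Black bars are the mean ± SD of a group (0.39 ± 0.21 and 0.58 ± 0.10), and the sham-operated mouse of replicate 4 is the lowest at 0.15.

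Taken in pairs, the 3 recruited and 5 resident markers gave 15 ratios, 2 of which separated the groups without overlap, in opposite directions. The log2 ratio of Lyz2 to Folr2 was 0.32 higher in MI mice, with a pooled SD of 0.09. The log2 ratio of Gpnmb to Cd163 was 0.74 lower in MI mice (pooled SD 0.30). Among all single probes, 8.44% lay wholly higher and 2.7% wholly lower in MI mice, and no share was computed for ratios of other probes. The pairs share genes and were described without a test.

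Other genes of the same cells were examined in lists, in which a gene rose or fell when its adjusted p was under 0.05 at any fold, as 6.3% of all probes did upwards and 1.31% downwards. Of 10 further genes of resident macrophages, 0 rose and 1 fell by their brightest probes, and their log2 fold-changes had a median of -0.06. The 2 probes of F13a1, of this list and named after its values were seen, differed. The brightest had a log2 fold-change of 0.32 (adjusted p = 0.470) and the dimmer of 0.84 (adjusted p = 0.0149). Cd209f, a C-type lectin, was the gene that fell, at 5.70 ± 0.88 with MI and 6.72 ± 0.49 with sham operation (log2 fold-change -1.02, SE 0.31, adjusted p = 0.0421). Its adjusted p was 0.0627 with scaling to the 75th percentile, and the exact two-sided permutation test gave p = 0.114. The groups overlapped, and the probe was dim, with intensities of 19.5 to 147.2. Selenop, which encodes the plasma carrier of selenium, was lower in MI mice without overlap, at 15.22 ± 0.42 against 15.87 ± 0.08, and its log2 fold-change of -0.65 had an adjusted p of 0.0722 (0.00839 with scaling to the 75th percentile). Pf4, a chemokine shared with platelets, was higher without overlap, with a log2 fold-change of 0.53 and an adjusted p of 0.131.

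Of 13 pan-macrophage genes, which include Adgre1, 1 rose and 0 fell, near the 6.3% and 1.31% of all probes. The median over the list was 0.14 on the log2 scale, near the 0.12 of all probes. Cd68, also on the list, had no retained probe by the rule used here, and the authors reported it as higher in MI mice. Cd14, the co-receptor for endotoxin on monocytes, macrophages and neutrophils, was 4.75-fold higher in MI mice (12.51 ± 0.51 against 10.26 ± 0.55, adjusted p = 1.34e-06). Fcgr1, the high-affinity IgG receptor CD64, lay wholly higher in MI mice with a log2 fold-change of 0.67 and an adjusted p of 0.0757. Cx3cr1, the fractalkine receptor, had a log2 fold-change of -0.64 (adjusted p = 0.167). The 3 probes of Itgam, which encodes CD11b and was named after its values were seen, disagreed. The brightest had a log2 fold-change of 0.14 (adjusted p = 0.817) and the dimmest of 0.19 (adjusted p = 0.701). The remaining probe had a log2 fold-change of 1.71 (adjusted p = 5.13e-06). Over all lists 18 genes had several probes, and in 4 of them (Itgam, F13a1, Vcan and Zbtb46) the probes differed in whether they passed the adjusted p.

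Of 7 further genes of recruited monocytes, 5 rose and 0 fell (4 of 7 by more than 2-fold), against the 6.3% and 1.31% of all probes, and the median log2 fold-change was 1.15. Chil3, the chitinase-like protein Ym1, was 6.91-fold higher in MI mice (13.39 ± 0.23 against 10.60 ± 0.68). Ifitm6, which encodes an interferon-induced transmembrane protein, was 4.38-fold higher (10.79 ± 0.47 against 8.66 ± 0.29), and Cd44, a hyaluronan receptor of leukocytes and other cells, was 2.58-fold higher (10.21 ± 0.26 against 8.84 ± 0.34). In all 3 genes every MI mouse exceeded every sham-operated mouse. Ccr2, the chemokine receptor of inflammatory monocytes, was named after its values were seen, and its log2 signal was 8.11, 8.04, 8.26 and 8.68 in MI mice, 2.22-fold above the 7.37, 7.23, 7.32 and 6.57 of sham-operated mice (adjusted p = 0.00112). These 7 genes and the recruited markers of the rule differed in their counts (5 of 7 against 1 of 3), and the difference between the lists was not tested. The cells that carried the 7 genes in this whole tissue were not identified.

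Of 8 genes of lipid-associated and repair macrophages, the class to which Gpnmb belongs, 4 rose and 0 fell, and the median over the list was 0.78 on the log2 scale. Hmox1, which encodes the heme-degrading enzyme heme oxygenase 1, was 4.59-fold higher in MI mice. Thbs1, which encodes thrombospondin 1, was 3.62-fold higher, and Arg1, which encodes arginase 1, was 3.19-fold higher. All 3 separated the groups without overlap, and all 3 are also expressed by cells other than macrophages. The other genes of the list were named after their values were seen. Lgals3 rose by 0.89 on the log2 scale (adjusted p = 0.00641). Trem2 (log2 fold-change 0.01, adjusted p = 0.990) and Fabp5 (-0.07, adjusted p = 0.896) did not pass. Spp1 (0.66, adjusted p = 0.258) and Cd9 (0.52, adjusted p = 0.122) did not pass either, though Cd9 lay wholly higher in MI mice.

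**Figure D4:**
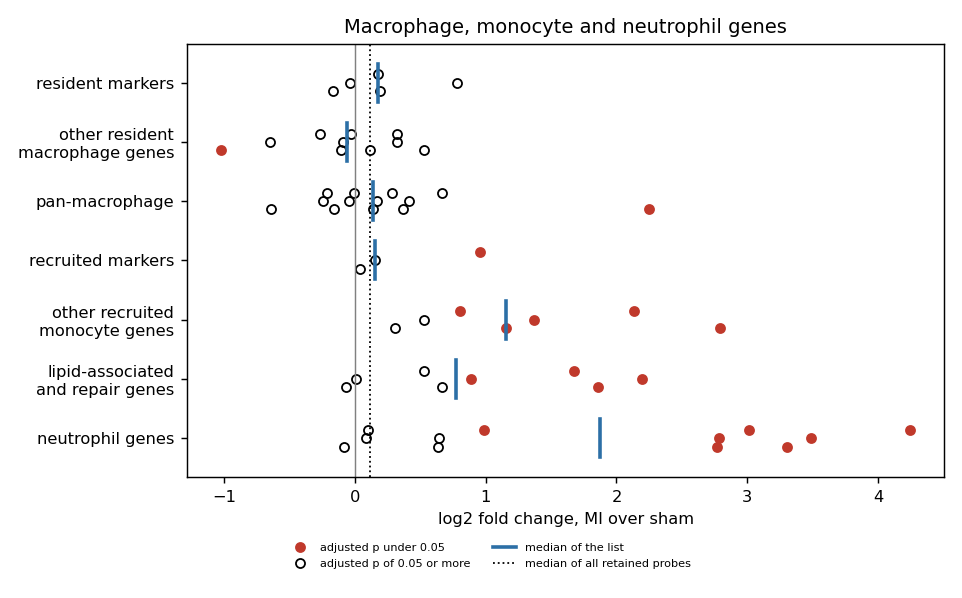
Log2 fold-change of MI over sham-operated mice for single genes of 7 lists on the spike-in scale, with 1 point per gene, filled red where the adjusted p was under 0.05. Blue bars are the medians of the lists and the dotted line is the median of all retained probes (0.12). The medians of the resident and recruited markers (0.17 and 0.15) lie by that line, and those of the other recruited monocyte genes (1.15) and neutrophil genes (1.88) lie to its right.

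Markers of other cells that express some of these genes were read beside them. Ptprc, which encodes the leukocyte antigen CD45, was 2.14-fold higher in MI mice (8.14 ± 0.27 against 7.05 ± 0.20 on the log2 scale, SE of the difference 0.21, adjusted p = 0.000906) and separated the groups without overlap. Of 12 neutrophil genes, 7 rose and 0 fell, and the median over the list was 1.88 on the log2 scale. Retnlg, which encodes a resistin-like protein, was 19.0-fold higher and Cxcr2, the receptor through which neutrophils follow chemokines, was 9.90-fold higher. Cd177, a neutrophil surface protein, was well above background in 4 of 4 MI mice and in 1 of 4 sham-operated mice, so that its fold-change depends on the additive constant (log2 3.49 on the spike-in scale, 4.59 with scaling to the 75th percentile). The summed intensity of the list was 295378 to 451933 in MI mice, above the 77612 to 146739 of sham-operated mice. This sum was not scaled between arrays, and a few bright probes, some of which did not rise, made up most of it. Neutrophils also carry Plac8, Lyz2 and Cd14. Their part in the values of these genes and of the further recruited monocyte genes was not tested.

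Lymphatic endothelium shares Lyve1, and 2 of its 3 measured genes rose, Pdpn by 1.00 (adjusted p = 0.0115) and Flt4 by 0.79 (adjusted p = 0.0387) on the log2 scale. Prox1, the transcription factor that defines these cells, had a log2 fold-change of -0.20 (adjusted p = 0.745). The summed intensity of the 3 genes, not scaled between arrays, was 3612 to 7834 in MI mice and 1836 to 2700 in sham-operated mice. Pdpn, which other cells also express, made up 86.5% to 97.5% of it. On the spike-in scale the groups overlapped in each of the 3 genes. Flt4 was dim, with intensities of 20.8 to 88.9. Their part in the Lyve1 signal was not tested.

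Of 4 dendritic cell genes 1 rose, Cd209a, by 0.76 on the log2 scale (adjusted p = 0.0331, or 0.0803 with scaling to the 75th percentile), and 0 fell. None of the 3 lymphocyte, 4 endothelial, 4 fibroblast and 6 cardiomyocyte genes measured passed the adjusted p, with median log2 fold-changes of 0.09, 0.06, -0.31 and -0.06. With scaling to the 75th percentile the first 2 of these medians turned to -0.04 and -0.07, and 1 of the endothelial genes passed, Pecam1 (adjusted p = 0.0389).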

How the data were processed

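Cardiac RNA of 8 mice (4 per group) was measured, with groups set by the sample labels. Per the file headers, the deposited intensity of a spot is the processed signal of Feature Extraction 11.0.1.1, with local background subtracted and no normalization between arrays. The authors deposited log2 values normalized on spike-in probes with vsn and limma. Comparison with the scanner intensities gave the additive constant (3.16 to 19.6) and shift of each array exactly, and these were applied to all spots. An own vsn fit gave constants of 166 to 257, above the array medians, which flattens dim probes, and served as an alternative. Outlier spots and controls were left out, spots of a probe averaged, and probes well above background on at least 4 of 8 arrays kept (34038). Limma 3.58.1 (R 4.3.3) was used without covariates, with Benjamini-Hochberg adjustment over all probes. It was checked on simulated data. Python 3.11.15 with numpy 2.4.6, scipy 1.17.1, pandas 2.3.3 and matplotlib 3.10.9 did the rest. Symbols came from RefSeq accessions of GRCm38.p6. The design was built on another assembly, so no coordinates are given.

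Besides the markers, Ly6c1, Lyz1 and Ptprc, the 3 genes of each list with the largest absolute log2 fold-change were to be named, of which the melanocyte, lymphocyte, endothelial, fibroblast, cardiomyocyte and part of the dendritic cell genes are given as counts. For the lists, 2 genes are not reported here and were left out. The markers and lists were chosen with earlier results of these data known. Alternatives covered scaling (75th percentile, spike-in shift, quantile, normexp with an offset of 50 on median spot intensities), detection filters, missing values, the authors' values, tests, probes, blocks and each mouse left out.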

Additional observations from a re-analysis of the deposited data

Results flagged for a closer look

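None of the 9 measured macrophage markers had a mouse that stood apart from the others of its group by Dixon's criterion. Among the 96 groups of 4 mice examined, which cover the markers and the genes named by rule, 5 had such a mouse, where chance gives about 1 in 20. The values below are log2 signals. The MI mouse of replicate 1 had a Cd14 value of 11.74, with the other MI mice at 12.73 to 12.82. The sham-operated mouse of replicate 4 had a Cx3cr1 value of 7.00, with the others at 7.60 to 7.70. For Cd44, of the list of recruited monocyte genes, the sham-operated mouse of replicate 3 was at 9.34 (others 8.63 to 8.74). For Postn, a fibroblast gene, the sham-operated mouse of replicate 3 was at 10.04 (others 9.64 to 9.65). For Ryr2, a cardiomyocyte gene, the MI mouse of replicate 2 was at 13.45 (others 13.89 to 13.98).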

How the results depend on the processing

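Leaving out each mouse in turn gave 0 to 1 markers called at 2-fold, against 0 with all mice. The marker called was Plac8, without the MI mouse of replicate 1 or 3 or the sham-operated mouse of replicate 2 or 3. At any fold, 1 marker (Plac8) passed the adjusted p with all mice, and leaving out a mouse gave 0 to 2. There were 2 (Plac8 and Cd163) without the sham-operated mouse of replicate 1 and 0 without that of replicate 4. Without the MI mouse of replicate 2 or 4, the 1 marker that passed was Cd163 and no longer Plac8. The count at any fold was 0 with scaling to the 75th percentile, the spike-in shift, the own vsn fit, quantile normalization, normexp, no detection filter, the authors' deposited values, significance analysis of microarrays and the fit without moderated variances. It was 2 (Plac8 and Cd163) where detection on all 8 arrays was required. The number of all probes called was 333 with the own vsn fit, 535 with normexp and 576 with the fit without moderated variances, against 1184. The number of list genes called was 10 with that fit, against 16. Timd4 turned to 0.026 with the own vsn fit and ranged from -0.43 to 0.20 with a mouse left out. Folr2 ranged from -0.313 to 0.0268 over all settings. Gpnmb turned to -0.15 with scaling to the 75th percentile, -0.0203 with the spike-in shift, -0.18 with quantile normalization and -0.0782 with normexp, and ranged from -0.14 to 0.33 with a mouse left out. Recruited minus resident markers stayed between 0.11 and 0.28 under the other scalings, filters and blocks, with Adgre1 as resident and with a mouse left out, which is less than the spread between mice away from 0.19, but was -0.10 without Plac8 and 0.34 without Cd163. Removing Ly6c2 from it could not be run as an alternative, since that gene had no probe. The cause of these changes was not tested.

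With the replicate block, 0 markers passed the adjusted p at any fold (Plac8, 0.0943) and 1155 probes were called at 2-fold. Deviations of same-numbered mice correlated at 0.24, 0.29, 0.14 and 0.01 over probes, so the numbers were not taken to pair the mice, and 5 of 8 mice correlated best with their own number. With 4 mice per group, standard errors of 0.22 to 0.29 on the log2 scale leave differences of the size seen for most markers undetectable. The signals of Cd163, Timd4 and Gpnmb lay nearest to background.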
